A study of Mus musculus with 22 samples.

Results

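*Tubgcp5*, *Cyfip1*, *Nipa2*, *Nipa1*, *Herc2* and *Oca2* lie next to each other on mouse chromosome 7, outside the imprinted block that corresponds to the human Prader-Willi syndrome (PWS) region. These 6 genes were taken by name from both count tables, and all 6 were found in each, among 55409 genes in the PWS-cr table and 55406 in the PWS-IC table. The comparison asked whether either deletion inside the block altered the RNA of neighbours that are expressed from both parental copies. RNA sequencing measured polyadenylated RNA of whole newborn (P0) brains. PWS-cr pups were heterozygous for a deletion of the critical interval, which carries the *Snord116* small nucleolar RNAs and most *Ipw* exons, made from the B6(Cg)-Snord116tm1Uta/J line and inherited from the father. PWS-IC pups were heterozygous for a paternal deletion of the imprinting centre, the element through which the paternally expressed genes of the block are kept active. Each model was set against wild-type pups of its own litters. There were 6 PWS-cr and 5 wild-type libraries over 4 litters, and 4 PWS-IC and 5 wild-type libraries over 2 litters. In litter 2 of the PWS-cr series the labelled wild-type library had no column. The PWS-cr pup of that litter therefore had no littermate to be set against, and 3 litters of that series held both genotypes. Both deletions came through the germline, so that all cells of the brain carried them. All 4 PWS-IC libraries are labelled female, whereas 1 of the 5 wild-type libraries beside them is, so that genotype and sex were nearly aligned in that series.

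In people, *TUBGCP5*, *CYFIP1*, *NIPA2* and *NIPA1* sit at the proximal end of the region, between recurrent breakpoints, and are lost in the larger class of PWS deletion, whereas *HERC2* and *OCA2* lie at its distal end. *Tubgcp5* encodes a subunit of the gamma-tubulin ring complex, from which microtubules grow. *Cyfip1* encodes a protein shared by the WAVE complex, which drives actin branching, and by a complex with the fragile X protein FMRP that holds back translation. *Nipa1* and *Nipa2* encode magnesium transporters of the membrane, *Herc2* a very large ubiquitin ligase that acts in DNA repair and binds the ligase Ube3a, and *Oca2* (the pink-eyed dilution locus) a melanosomal membrane protein needed for pigment. None of them is known as an imprinted gene, in contrast to the genes within the block.

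On mm10 the 6 genes ran in the order *Tubgcp5* (chr7:55794154-55831677, plus strand), *Cyfip1* (chr7:55841745-55932602, plus), *Nipa2* (chr7:55931287-55962476, minus), *Nipa1* (chr7:55977567-56019954, minus), *Herc2* (chr7:56050196-56231800, plus) and *Oca2* (chr7:56239760-56536518, plus). *Oca2* ended 2.77 Mb and *Tubgcp5* 3.48 Mb from the near edge of *Snhg14*, the long host transcript of the block. The 3' ends of *Cyfip1* and *Nipa2* overlapped on opposite strands by 1316 bases, all of them exonic in both genes. The noncoding transcript *A230056P14Rik* started 54 bases beyond the start of *Nipa2* in the other direction, and it shared 473 exonic bases with the 3' end of *Nipa1* on the opposite strand. The libraries were unstranded, so reads from these shared stretches cannot be told apart by strand. *Herc2* and *Oca2* were separated by 7.96 kb and shared no exonic base with another annotated gene. The longest annotated transcript of *Herc2* has 15261 bases, against 6440 for *Cyfip1*, 4120 for *Tubgcp5*, 3925 for *Nipa2*, 3374 for *Oca2* and 3183 for *Nipa1*.

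The starts of *Herc2*, *Nipa1* and *Oca2* are printed because these genes were the first, second and last of the 6 by level. Each window, from RefSeq on GRCm38.p6, runs from 250 bases before to 50 bases after an annotated start, in the direction of transcription, with each CG pair (a CpG site, read the same on both strands) in capitals. The *Herc2* window lies at chr7:56049905-56050204 (plus strand), the *Nipa1* window at chr7:56019551-56019850 (minus) and the *Oca2* window at chr7:56239509-56239808 (plus).
Herc2: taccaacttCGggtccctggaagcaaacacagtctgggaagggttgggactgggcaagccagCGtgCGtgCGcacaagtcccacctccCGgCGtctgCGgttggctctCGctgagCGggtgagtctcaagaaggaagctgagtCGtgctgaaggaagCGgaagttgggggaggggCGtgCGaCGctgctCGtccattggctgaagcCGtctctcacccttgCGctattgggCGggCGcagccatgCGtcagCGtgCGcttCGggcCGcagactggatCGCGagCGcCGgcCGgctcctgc
Nipa1: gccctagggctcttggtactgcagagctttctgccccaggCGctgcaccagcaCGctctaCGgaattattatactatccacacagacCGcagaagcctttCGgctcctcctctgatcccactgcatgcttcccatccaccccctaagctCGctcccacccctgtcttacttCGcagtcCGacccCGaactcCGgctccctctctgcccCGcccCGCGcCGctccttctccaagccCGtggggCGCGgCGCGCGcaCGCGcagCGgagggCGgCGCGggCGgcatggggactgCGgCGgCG
Oca2: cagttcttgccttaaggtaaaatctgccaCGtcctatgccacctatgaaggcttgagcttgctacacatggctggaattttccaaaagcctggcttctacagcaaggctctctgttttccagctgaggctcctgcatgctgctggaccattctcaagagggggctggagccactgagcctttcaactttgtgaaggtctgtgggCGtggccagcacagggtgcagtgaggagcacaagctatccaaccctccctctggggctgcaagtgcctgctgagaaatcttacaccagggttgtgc
The *Herc2* window held 29 CG pairs and the *Nipa1* window 30, and of the 32851 windows 12.9% held at least 29 and 11.7% at least 30. A second annotated start of *Herc2* had 38. The windows of *Nipa2* and *Tubgcp5* held 19 and 18. The *Oca2* window held 2, and 23.3% of all windows held 2 or fewer, against a median of 7 and 94.6% of windows with at least 1. *Cyfip1* had no entry in this table. The counts describe the letters of these windows only, and methylation was not measured here.

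Before the genotype comparisons, the labels of the PWS-IC series were checked against *Snrpn*, a paternally expressed gene whose RNA depends on the imprinting centre. The library labelled 1_3_IC (PWS-IC) held 18116 *Snrpn* counts, while the other 3 PWS-IC libraries held 255 to 425. The library labelled 1_7_IC (wild type) held 343, while the other 4 wild-type libraries of that series held 12281 to 16556. Both libraries thus went against their labels, and the PWS-IC values of the 6 genes are given for all 9 libraries as labelled and for the 7 that remain without this pair. The *Snrpn* counts overlapped between PWS-cr (12451 to 17121) and its wild type (13046 to 15507). *Snrpn* is not part of the PWS-cr deletion, so it cannot check the labels of that series. No other check of those genotype labels is given here. Total counts ranged from 45798407 to 62103143 per library. Neuronal markers were high in all groups (summed level 3537 to 5171 CPM over 6 markers, where CPM is the count scaled to library size), and all 6 markers were detected in each group. Whole brains were sequenced, so fewer cells of a type and less RNA per cell cannot be told apart.

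The genes differed strongly in level, measured as the authors' TPM, a transcript abundance corrected for gene length and library size. *Herc2* was highest, with 30.02 to 91.5 TPM over the 20 libraries (median 74.8), and *Nipa1* followed with 42.1 to 59.7 TPM (median 53.5). *Herc2* stood above *Nipa1* in 19 of 20 libraries, the exception being 1_3_IC, where *Herc2* had 30.02 TPM and *Nipa1* 42.1 TPM. In the other 19 libraries the ranges did not meet, since the lowest *Herc2* value was 61.7 TPM. *Cyfip1* came next with 19.4 to 30.3 TPM and was below *Nipa1* and above *Tubgcp5* in all 20 libraries. *Tubgcp5* (11.2 to 18.004 TPM) and *Nipa2* (12.2 to 16.6 TPM) overlapped over most of their ranges, with *Tubgcp5* the higher in 16 of 20 libraries. *Oca2* was far below the rest with 0.75 to 1.58 TPM, from 40 to 82 counts per library. Among the genes with any TPM in wild-type libraries, 94.6% were lower than *Herc2* and 55.2% lower than *Oca2* in the PWS-cr series.

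**Figure D1:**
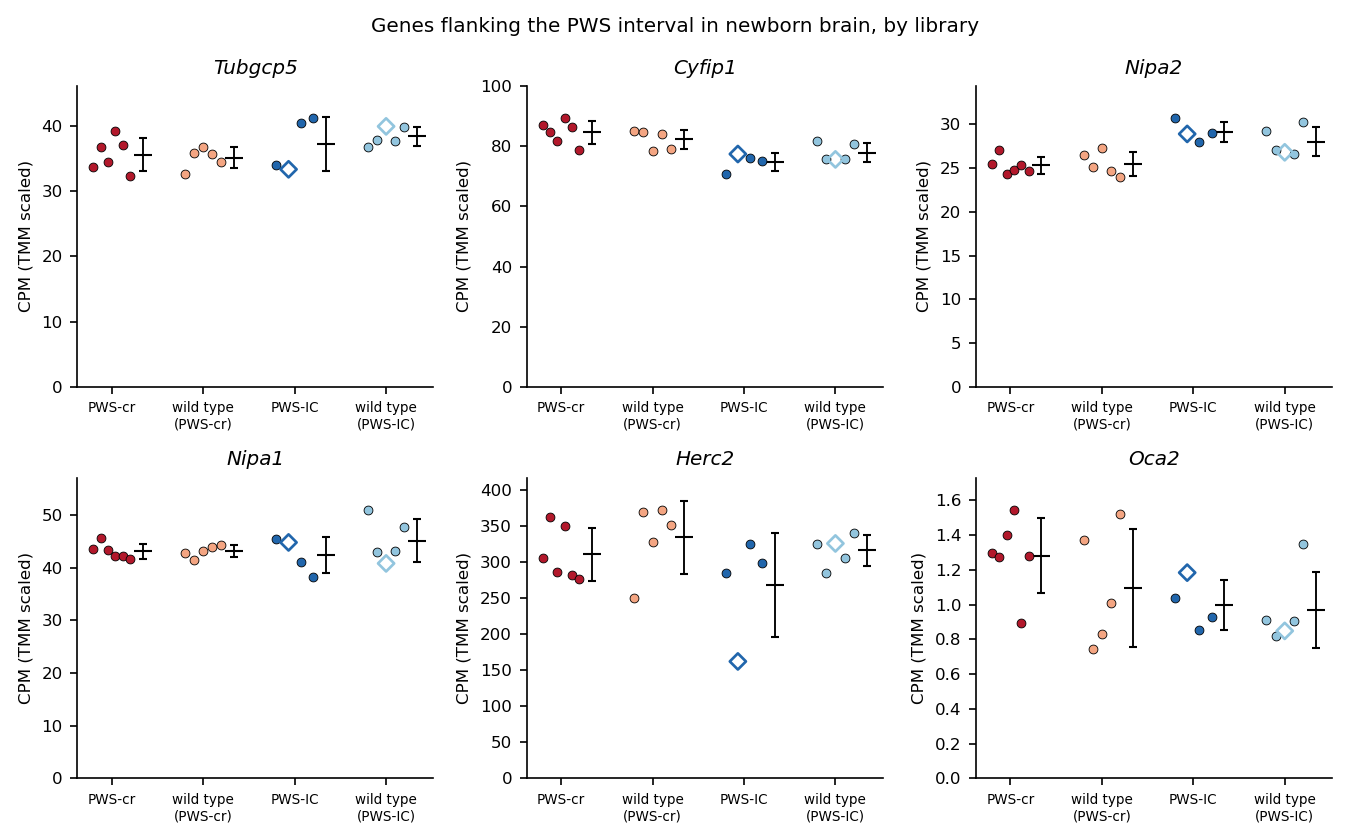
Level of each of the 6 genes in CPM (counts scaled to library size, TMM, y axis) in the 20 libraries, by group, with the mean and SD of each group beside its points; open diamonds are the libraries 1_3_IC and 1_7_IC. Mutant and wild-type points overlap in every panel, and the *Herc2* value of 1_3_IC (162 CPM) lies below all 19 others.

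None of the 6 genes was called in PWS-cr brains. Of the 22172 genes tested there by edgeR's quasi-likelihood test with Benjamini-Hochberg adjustment, 3 passed an adjusted p of 0.05, which is 0.0135% (459 at an unadjusted p under 0.05). Of the 6 genes, 0 passed either threshold, and 0 passed with DESeq2. The CPM values of mutant and wild type did not overlap in 0 of the 6 genes, against 0.171% of all genes tested. The median log2 fold change of the 6 was -0.0036, beside 0.0034 over all genes tested.

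*Cyfip1* had 87.0, 84.7, 81.7, 89.3, 86.3 and 78.9 CPM in the PWS-cr libraries, against 85.2, 84.8, 78.6, 84.0 and 79.2 CPM in wild type. The groups overlapped, and the log2 fold change was 0.0051 (SE 0.042, adjusted p = 0.9999). Its 95% interval ran from -5.93% to 7.05%.

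*Nipa1* had 41.6 to 45.6 CPM (median 42.7) in PWS-cr and 42.9, 41.4, 43.1, 43.9 and 44.2 CPM in wild type. All 11 values lay within a few CPM of each other, and the interval of the difference ran from -7.07% to 5.78%. *Nipa2* had 24.3 to 27.1 CPM in PWS-cr and 26.5, 25.1, 27.4, 24.7 and 23.9 CPM in wild type, with an interval from -9.23% to 6.60%. *Tubgcp5* had 33.6, 36.7, 34.5, 39.2, 37.0 and 32.2 CPM in PWS-cr, against 32.6, 35.8, 36.7, 35.7 and 34.4 CPM in wild type. Both its highest and its lowest value came from PWS-cr pups, and the interval ran from -7.35% to 9.05%.

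*Herc2* varied more. It had 305, 363, 287, 350.5, 283 and 276 CPM in PWS-cr libraries, against 251, 370, 328, 373 and 351 CPM in wild type. The lowest and the highest value were both from wild-type pups, so the groups overlapped throughout. The log2 fold change was -0.11 (SE 0.13, adjusted p = 0.9999), with an interval from -23.9% to 13.4%. The litters disagreed in sign: PWS-cr minus wild type was 0.34 (log2) in litter 1, -0.30 in litter 3 and -0.39 in litter 4. The library 1_3_Cr was the only wild-type pup of litter 1, and without it the log2 fold change was -0.35 (unadjusted p = 0.0042, adjusted p = 0.9999, both from edgeR). Leaving out the PWS-cr library 4_3_Cr instead gave 0.028, so the sign of the *Herc2* value rested on single libraries.

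*Oca2* had 59, 63, 76, 82, 48 and 65 counts in the PWS-cr libraries (1.29, 1.28, 1.397, 1.55, 0.89 and 1.28 CPM), against 73, 40, 46, 54 and 73 counts in wild type (1.37, 0.75, 0.83, 1.01 and 1.52 CPM). Wild-type pups spanned nearly the whole range. The log2 fold change was 0.042 (SE 0.15, adjusted p = 0.9999), and the interval ran from -18.2% to 29.5%. The lowest count, 40, carries an exact Poisson 95% interval of 28.6 to 54.5 and the highest, 82, one of 65.2 to 101.8, which cover counting error only.

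In PWS-IC brains as labelled, 0 of the 6 genes and 0 of all 22367 genes tested were called by edgeR, a share of 0% (unadjusted p under 0.05 in 1840 genes, and 1 call by DESeq2). Of the 6, 0 had an unadjusted p under 0.05 in this edgeR fit and 0 were called by DESeq2. In the 7 libraries, 53 of 21913 genes were called (0.242%, with 2798 at an unadjusted p under 0.05), again with 0 of the 6 by either tool. The CPM of the groups did not overlap for 0 of the 6 genes in both fits, where the share over all genes tested was 2.29% in 9 libraries and 10.3% in 7. The median log2 fold change of the 6 was -0.063 in 9 libraries (all genes 0.0037) and -0.074 in 7 (all genes 0.0014).

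*Herc2* had the lowest value of any library in 1_3_IC. Its 4 PWS-IC values were 285 (1_10_IC), 162 (1_3_IC), 325 (4_4_IC) and 299 CPM (4_5_IC), against 325, 285, 326, 306 and 341 CPM in wild type. The other 3 PWS-IC libraries lay inside the wild-type range. As labelled, the log2 fold change was -0.28 (SE 0.16, adjusted p = 0.57), and in the 7 libraries it was -0.062 (SE 0.068, adjusted p = 0.73), with an interval from -13.6% to 6.33%. Over the 18 alternatives to the fit as labelled, the lowest unadjusted p was 0.0099 and the lowest adjusted p 0.26 (edgeR or DESeq2). Leaving out 1_3_IC alone gave -0.078, while the 9 fits that each left out 1 library ran from -0.39 to -0.078. The size of the *Herc2* value as labelled therefore rested on 1 library whose *Snrpn* count goes against its label.

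The PWS-IC values of *Nipa1* were 45.4, 44.8, 41.0 and 38.2 CPM, against 51.0, 43.0, 40.8, 43.1 and 47.8 CPM in wild type. *Nipa1* had the lowest unadjusted p of the 6 genes in the 7 libraries, with a log2 fold change of -0.13 (SE 0.079, unadjusted p = 0.12, adjusted p = 0.50 by edgeR), and in that fit's libraries it was lower in both litters (-0.045 and -0.20). The interval ran from -19.1% to 3.00%, and as labelled it was -18.1% to 8.18% around a log2 fold change of -0.087 (adjusted p = 0.72). Without the wild-type library 1_5_IC the 7-library value was -0.18 (unadjusted p = 0.019, adjusted p = 0.21 by edgeR). *Cyfip1* had 70.7, 77.4, 76.0 and 75.0 CPM in PWS-IC and 81.9, 75.7, 75.7, 75.9 and 80.6 CPM in wild type. Its log2 fold change in 7 libraries was -0.086 (SE 0.058, adjusted p = 0.55), with an interval from -13.8% to 3.01% and values of -0.16 and -0.050 in the litters. As labelled it was -0.061, with an interval from -13.4% to 6.03%. With sex in the model, which was nearly aligned with genotype, the 7-library values were -0.25 for *Nipa1*, -0.19 for *Cyfip1* and -0.20 for *Herc2* (adjusted p = 0.32, 0.31 and 0.34 by edgeR), and as labelled they were -0.25, -0.15 and -0.44 (adjusted p = 0.83, 0.84 and 0.83). None passed the test in these fits. In litter 4 the PWS-IC libraries were female and the wild-type libraries male, so only litter 1 separated sex from genotype. There 1_1_IC was the only wild-type female, and without the pair 1_10_IC was the only PWS-IC pup. The values with sex therefore lean on single pups.

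*Nipa2* had 30.7, 28.9, 28.0 and 29.1 CPM in PWS-IC and 29.3, 27.0, 26.8, 26.7 and 30.3 CPM in wild type, and its interval ran from -7.04% to 16.6% in 7 libraries and from -8.07% to 17.9% as labelled. *Tubgcp5* had 33.99, 33.3, 40.4 and 41.1 CPM in PWS-IC and 36.7, 37.8, 39.9, 37.7 and 39.8 CPM in wild type. The PWS-IC pups of litter 1 (1_10_IC and 1_3_IC) were at the low end and those of litter 4 at the high end. The *Snrpn* count of 1_3_IC goes against its label, and without it the low end rested on 1_10_IC alone. The interval of *Tubgcp5* ran from -9.93% to 11.04% in 7 libraries and from -15.4% to 8.16% as labelled. *Oca2* had 55, 55, 45 and 59 counts in PWS-IC against 53, 44, 52, 54 and 69 in wild type. Its interval in 7 libraries was the widest of the 6, from -32.0% to 29.95%, and as labelled it ran from -24.7% to 42.0%.

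**Figure D2:**
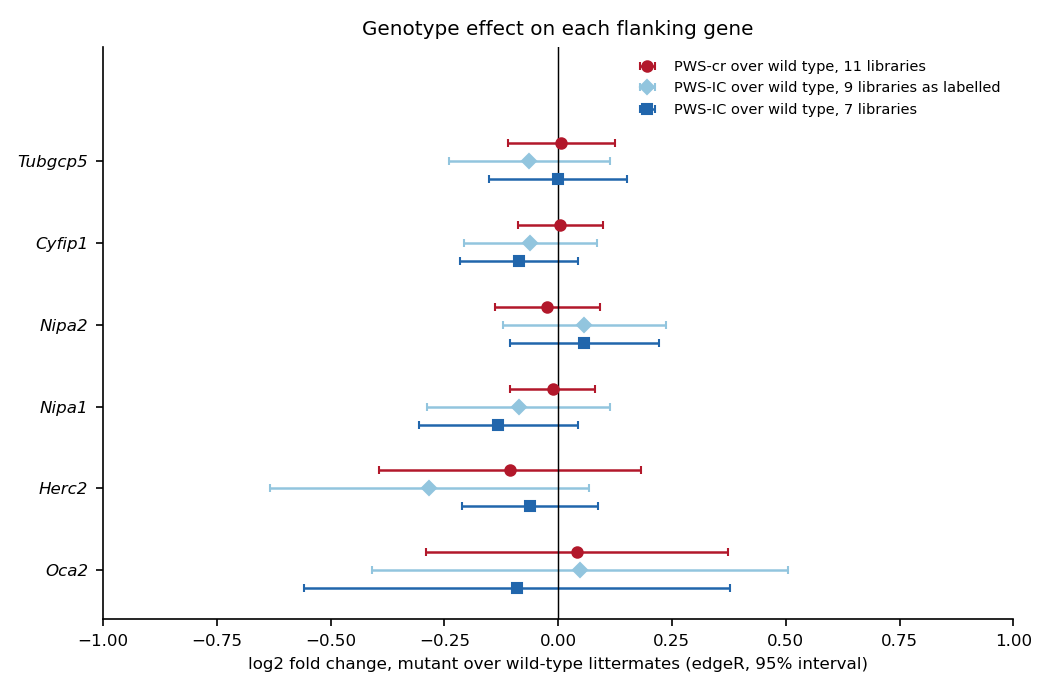
Log2 fold change (x axis, mutant over wild type, edgeR) of each of the 6 genes with its 95% interval, for PWS-cr (11 libraries) and for PWS-IC with all 9 libraries as labelled and with 7. Every interval includes 0, and those of *Herc2* as labelled and of *Oca2* are the widest.

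A single fit of both series tested whether the PWS-IC effect differed from the PWS-cr effect. With all libraries 0 of 23771 genes differed (0%, 1123 at an unadjusted p under 0.05), and without the pair 43 of 23574 did (0.182%), with 0 of the 6 genes in either. DESeq2 was not run on this comparison. *Nipa1* had the lowest unadjusted p without the pair, with an effect in PWS-IC minus that in PWS-cr of -0.12 (SE 0.087, adjusted p = 0.74 by edgeR, interval -0.30 to 0.07). For *Herc2* the difference was -0.16 with all libraries and 0.045 without the pair. The intervals of the 6 differences without the pair ran from at lowest -0.67 to at highest 0.41, both for *Oca2*, and for *Cyfip1* from -0.23 to 0.05. An absence of a call does not show that the models act alike on these genes.

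The genes also differed in how much they varied between pups of 1 group. The pooled SD of log2 CPM within groups over 20 libraries was 0.062 for *Cyfip1*, 0.072 for *Nipa2*, 0.093 for *Nipa1* and 0.095 for *Tubgcp5*. Of the 15992 genes with a mean of at least 1 CPM, 2.21% had a smaller SD than *Cyfip1* and 12.8% a smaller SD than *Tubgcp5*, beside a median SD of 0.18. Over the 18 libraries without the pair these shares were 6.28% and 26.6%, beside a median SD of 0.13. *Herc2* stood on the other side with 0.25 (74.0% of genes had a smaller SD) although it had more counts than 97.1% of them. In the 18 libraries without the pair its SD was 0.17, still larger than that of 67.6% of genes. *Oca2* had 0.31, at counts where sampling error is large.

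*Herc2* moved with other long transcripts. In each library, the median deviation of log2 CPM from the series median was taken over the 378 (PWS-cr series) or 377 (PWS-IC series) other genes with a transcript over 10 kb and a mean of at least 5 CPM. In 1_3_IC this median was -0.87 for transcripts over 10 kb and 0.94 for those of at most 1 kb, and *Herc2* deviated by -0.92. In the other 19 libraries the median for long transcripts stayed between -0.14 and 0.12. It ranged from -0.059 to 0.065 in PWS-cr and from -0.081 to 0.072 in wild type of that series, and without the pair from -0.14 to 0.069 in PWS-IC and from -0.076 to 0.12 in wild type.

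**Figure D3:**
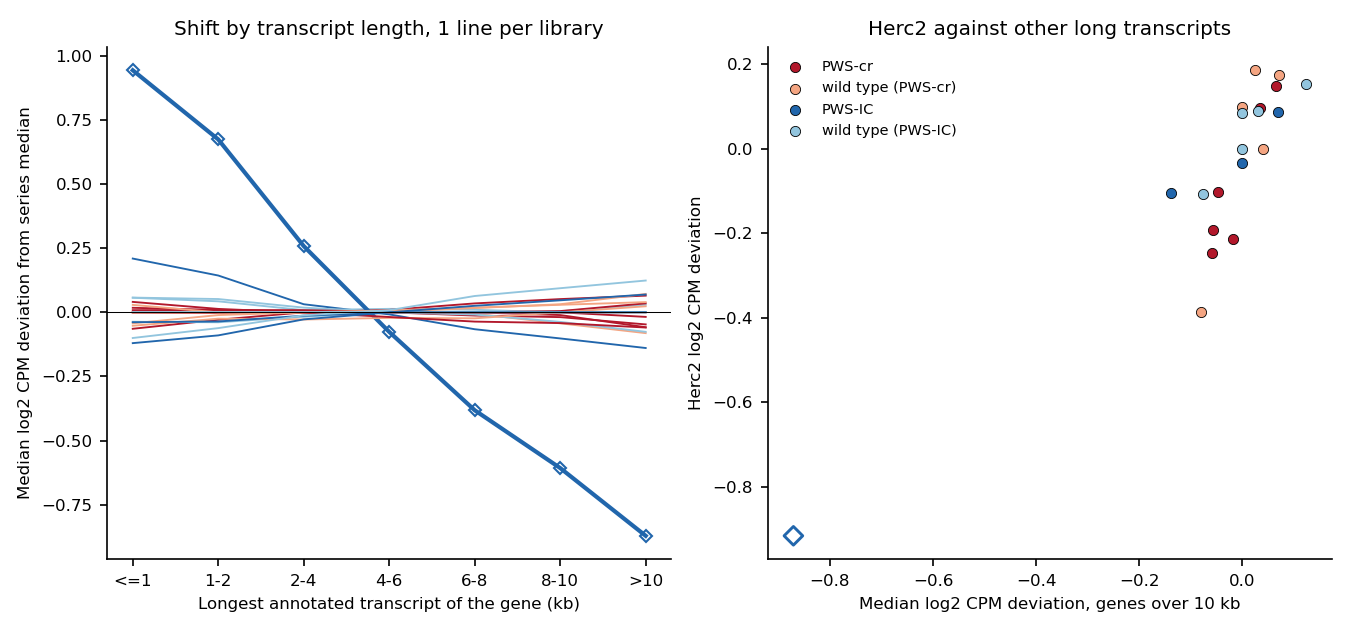
Left, median log2 CPM deviation (y axis) of genes by the length of their longest transcript (x axis, kb), 1 line per library, with 1_3_IC thick; right, the *Herc2* deviation (y axis) against the median deviation of other genes over 10 kb (x axis), 1 point per library, with 1_3_IC as a diamond. 1_3_IC runs from 0.94 for the shortest class to -0.87 for the longest, and *Herc2* follows the long transcripts in the other libraries of both series.

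Over the 11 PWS-cr series libraries, *Herc2* and the long-transcript median correlated with r = 0.89 (permutation p = 6.0e-04, adjusted 0.0054 over 18 relations) and rho = 0.83 (permutation p = 0.0027). Without the 2 libraries farthest from the median (3_1_Cr and 1_3_Cr), r was 0.83. In the PWS-IC series r was 0.91 over the 8 libraries other than 1_3_IC (exact permutation p = 8.9e-04, adjusted 0.0054) with rho = 0.93 (exact p = 0.0024), and 0.85 without the 2 farthest. With 1_3_IC included r was 0.99 (exact permutation p = 9.9e-05, adjusted 0.0018, n = 9) and rho 0.95. Litters held too few libraries for a value of their own. The permutations exchanged libraries across litters and genotypes, so these p-values do not account for litter. *Tubgcp5* had r = 0.75 in the PWS-cr series (permutation p = 0.0086, adjusted 0.031, rho = 0.71) and 0.75 without the 2 farthest. Over the 8 PWS-IC series libraries its r was 0.76 (exact permutation p = 0.029, adjusted 0.088, rho = 0.59), and it was 0.51 without the 2 farthest. With 1_3_IC included its r was 0.755 (exact permutation p = 0.0020, adjusted 0.0092, n = 9, rho = 0.71), and 0.49 without the 2 farthest. For *Cyfip1*, *Nipa2*, *Nipa1* and *Oca2* the adjusted p was at least 0.15 in each set of libraries (permutation). With the long-transcript median added to the model, an alternative chosen after seeing the data, the *Herc2* log2 fold change was -0.017 in PWS-cr (interval -0.14 to 0.10), -0.0032 in PWS-IC as labelled and 0.023 in the 7 libraries. What shifted long transcripts in 1_3_IC was not tested.

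The genes with the most similar pattern to each member were taken by Pearson's r of log2 CPM over the 20 libraries, with the mean of each series removed. These libraries share litters, depth and the length shift, so the values are descriptive. For *Herc2* they were *Slc4a8* (r = 0.98), *Wdfy3* (0.96) and *Tanc2* (0.96), and over 18 libraries *Slc4a8* (0.95), *Macf1* (0.92) and *Huwe1* (0.91). *Macf1* and *Huwe1* encode very large proteins, as *Herc2* does, but the lengths of the named genes were not compared. For *Oca2* they were *Slc4a5* (0.71), *Mfrp* (0.71) and *Kcnj13* (0.70), of which *Slc4a5* and *Mfrp* were also among the first 3 over 18 libraries. For *Cyfip1*, *Sgk3* came first in both sets (0.87 over 20 and 0.91 over 18). The first genes for *Tubgcp5*, *Nipa2* and *Nipa1* over 20 libraries were *Rab3gap1* (0.87), *Cul1* (0.81) and *Ptger3* (0.88), and they gave way to *Slc30a7*, *Cdk17* and *Naaladl2* over 18. None of the 6 genes was among the 3 most similar genes of another. Between members, r over 18 libraries was highest for *Tubgcp5* and *Herc2* (0.53) and lowest for *Tubgcp5* and *Nipa1* (-0.32), and for the overlapping pair *Cyfip1* and *Nipa2* it was 0.070.

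Transcripts between and within the 6 genes were measured beside them. *A230056P14Rik*, which starts next to *Nipa2*, had 14.2 to 16.9 CPM in PWS-cr and 14.9 to 17.1 CPM in wild type. In the PWS-IC series it had 10.5 to 13.5 CPM in PWS-IC and 12.7 to 14.2 CPM in wild type, with a log2 fold change as labelled of -0.23 (SE 0.097, unadjusted p = 0.038, adjusted p = 0.56 by edgeR) and -0.20 in the 7 libraries (unadjusted p = 0.056, adjusted p = 0.40). *Gm44616*, a transcript to be experimentally checked that shares 173 exonic bases with *Cyfip1* on the opposite strand, had 1.81 to 2.03 CPM in the 3 PWS-IC libraries that remain without the pair, against 1.31 to 1.60 CPM in 4 wild-type libraries. Its log2 fold change was 0.47 (SE 0.16, adjusted p = 0.29 by edgeR). As labelled its PWS-IC values ran from 0.93 to 2.03 CPM, overlapping the 1.31 to 1.60 CPM of wild type, and the log2 fold change was 0.24 (adjusted p = 0.69). *Gm17907*, a processed pseudogene in an intron of *Cyfip1* named after its values were seen, had 0.43 to 0.71 CPM in PWS-IC and 0.37 to 0.51 CPM in its wild type, and 1.45 to 2.22 CPM in PWS-cr and 1.69 to 1.92 CPM in its wild type. The series did not overlap in it, whatever the genotype, and the share of all genes without overlap between series was not counted. *Gm34121*, a transcript next to *Herc2*, did not overlap between series either, at 8 to 34 counts per library. It had 0.35 to 0.59 CPM in PWS-cr and 0.37 to 0.64 CPM in its wild type. In PWS-IC it had 0.15 to 0.30 CPM, and in its wild type 0.17 to 0.29 CPM. *Gm44616* overlapped between series, with 1.64 to 2.70 CPM in PWS-cr and 1.68 to 2.52 CPM in its wild type. The paper did not pool the series because their wild-type littermates differed. Without a share over all genes, the values of *Gm17907* and *Gm34121* between series are description only. Colony and sequencing series cannot be told apart.

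Genes within 4 Mb of the block were counted in the same fits. Over all genes tested, 0.0135% were called in PWS-cr, 0% in PWS-IC as labelled and 0.242% in the 7 libraries. At these shares, 0 calls among so few neighbours says little about them. On the *Atp10a* side, which holds the 6 genes, 19 other genes were tested in PWS-cr and 22 in PWS-IC, with 0 called (1 of 22 had an unadjusted p under 0.05 as labelled and 4 of 22 in the 7 libraries). On the far side, beyond *Peg12*, 27 genes were tested in each series as labelled and 26 in the 7 libraries, with 0 called (0, 3 and 6 at an unadjusted p under 0.05). Over all genes tested an unadjusted p under 0.05 was reached by 2.07% in PWS-cr, 8.23% in PWS-IC as labelled and 12.8% in the 7 libraries. The lowest p values in PWS-cr on the near side were those of *Gabra5* (0.087), a GABA-A receptor subunit, and *4833421K07Rik* (0.39), given as log2 fold changes, and on the far side those of *Gm20684* (-0.41) and *Mtmr10* (0.10). In PWS-IC as labelled they were *A230056P14Rik* (above) and *Gabrg3* (-0.41), another GABA-A subunit, and on the far side *Selenos* (0.35) and *Tm2d3* (0.44), each with an adjusted p of 0.56 by edgeR. In the 7 libraries *Gm44894* on the near side had 1.16 (SE 0.23, adjusted p = 0.090; 0.49 and 0.72 as labelled) and on the far side *Selenos* had 0.30 (adjusted p = 0.21) and *Gm44741* 0.73 (adjusted p = 0.24; 0.34 and 0.70 as labelled).

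**Figure D4:**
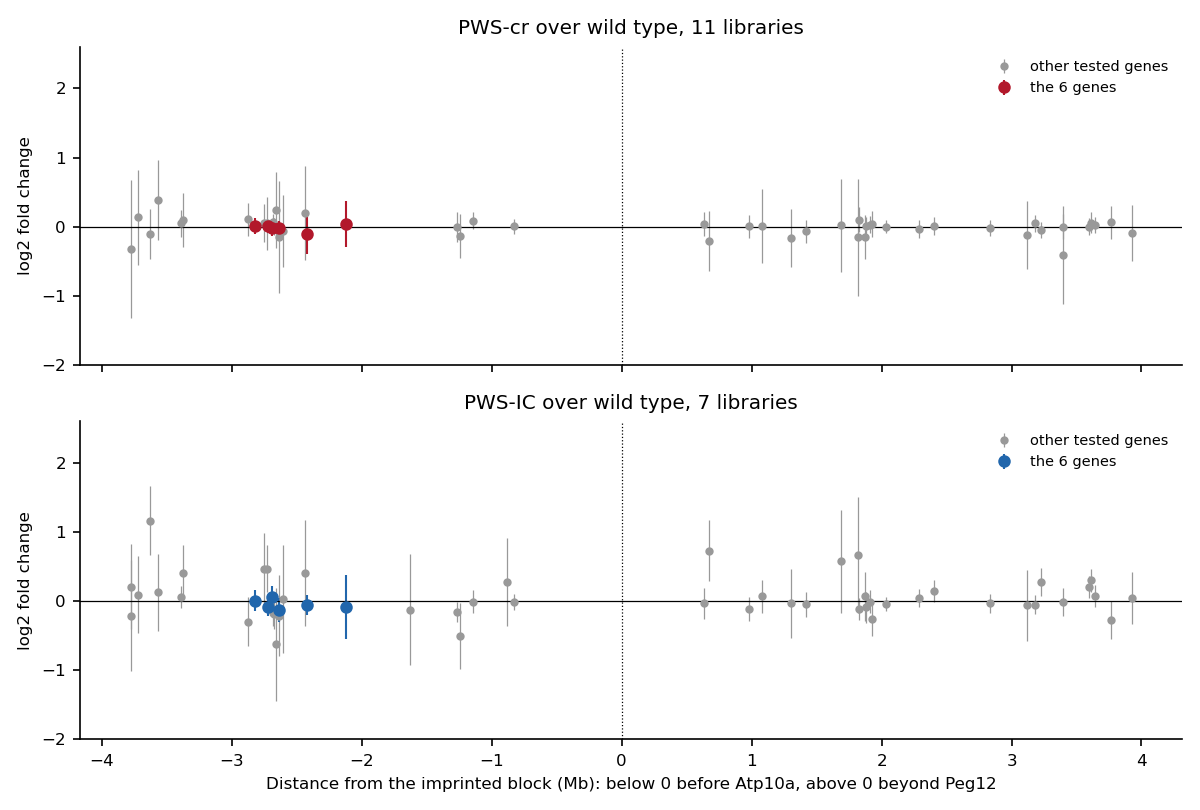
Log2 fold change (y axis, edgeR, 95% interval) of tested chromosome 7 genes against distance from the imprinted block (x axis, Mb; below 0 before *Atp10a*, above 0 beyond *Peg12*), for PWS-cr above and PWS-IC (7 libraries) below, with the 6 genes in colour. The 6 genes lie 2 to 3 Mb from the block and *Oca2* has the widest interval among them in both panels, followed in PWS-cr by *Herc2*, and the highest grey point below is *Gm44894* at 1.16.

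The partners of the 6 genes were counted in the same fits. Over all genes tested, 0.0135% were called in PWS-cr, 0% in PWS-IC as labelled and 0.242% in the 7 libraries. At these shares, 0 calls in a short list says little about its genes, here and in the lists that follow. Of 13 WAVE and FMRP partners of *Cyfip1*, all were tested and 0 were called, with medians of 0.0045 in PWS-cr, 0.0089 in PWS-IC as labelled and 0.036 in the 7 libraries. The lowest p values were those of *Cyfip2* (0.054), its close paralogue, and *Fxr1* (-0.055) in PWS-cr, of *Brk1* (0.30) and *Rac1* (0.13) in PWS-IC as labelled, and of *Rac1* (0.066) and *Fmr1* (0.063) in the 7 libraries. Of 11 gamma-tubulin complex genes 0 were called, with medians of -0.051, -0.033 and -0.028. *Nedd1*, which targets the ring complex to the centrosome, had the lowest p in each fit, at -0.12 in PWS-cr, -0.23 in PWS-IC as labelled and -0.23 in the 7 libraries (adjusted p = 0.9999, 0.56 and 0.42), followed by *Tubgcp6* (-0.065), *Tubg2* (0.21) and *Tubg1* (-0.090), one per fit.

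Of 16 other magnesium transporters 0 were called, with medians of 0.021 in PWS-cr, -0.067 in PWS-IC as labelled and -0.019 in the 7 libraries. *Slc41a1*, a magnesium carrier of the plasma membrane, had -0.24 in the 7 libraries (SE 0.068, unadjusted p = 0.0043, adjusted p = 0.24) and *Trpm6*, a magnesium channel, -0.41 (adjusted p = 0.36). As labelled *Trpm6* had -0.30 and *Cnnm1* -0.23, and in PWS-cr *Slc41a3* had 0.19 and *Nipal4* 0.37. Of 12 *Herc2* partners 0 were called, with medians of -0.010, -0.018 and 0.028. *Herc1*, another giant HERC ligase, had -0.32 as labelled (adjusted p = 0.56) and was not among the lowest p values in the 7 libraries, where *Rnf8*, a ubiquitin ligase of DNA repair, had 0.24 (adjusted p = 0.32) and *Xpa* 0.19. *Xpa* had 0.16 as labelled, and in PWS-cr *Clspn* had -0.15 and *Mapk6* 0.045.

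Pigment genes were read beside *Oca2*, against the same small shares of all genes called. Of 11 melanosome genes, 8 were tested in PWS-cr, 8 in PWS-IC as labelled and 7 in the 7 libraries, and 0 were called, with medians of 0.14, -0.11 and -0.019. *Tyr*, the rate-limiting enzyme of melanin synthesis, had 4 to 9 counts in PWS-IC and 3 to 10 in its wild type, and 1 to 9 in PWS-cr and 2 to 9 in its wild type. *Mlana* had at most 6 counts in any library, and *Rpe65*, a defining gene of the pigment epithelium, was at 0 in all PWS-IC libraries and at 0 to 2 counts in the libraries of each other group. The lowest p values were those of *Rab38* (0.77, unadjusted p = 0.014, adjusted p = 0.9999 by edgeR) and *Slc45a2* (0.23) in PWS-cr, *Tyrp1* (-0.78) and *Dct* (0.45) in PWS-IC as labelled, and *Rab27a* (-0.27) and *Dct* (0.51) in the 7 libraries. *Tyrp1* had 5 to 7 counts in PWS-IC and 6 to 18 in its wild type. It met the filter of 10 counts through wild-type libraries only, so its value is description only. Summed over 7 markers of pigment epithelium and melanocytes, the level was 26.9 to 44.6 CPM in PWS-IC and 27.5 to 32.7 CPM in its wild type, and 29.3 to 34.02 CPM in PWS-cr and 21.0 to 35.5 CPM in its wild type. Most of this sum was *Rlbp1*, with 1324 to 1987 counts in PWS-IC and 1310 to 1798 in its wild type, and 1388 to 1743 in PWS-cr and 922 to 1825 in its wild type, while none of the other 6 markers exceeded 58 counts in any library. The part of these cells in the *Oca2* values was not tested.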

How the data were processed

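Polyadenylated RNA of P0 brains was sequenced as paired, unstranded libraries. The authors mapped reads to mm10 with STAR and counted them per gene with featureCounts; tool versions are not given in the sources used here. Of 22 labelled libraries, 20 had a column, since the authors set 1 library per series aside after clustering. Deposited raw counts were the basis of every test, and deposited TPM (scaled by the authors for gene length) of the levels between genes. The deposited size-factor scaled signal, FPKM, log2 fold changes, score and p-values of the authors' DESeq2 comparison were not used.

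Each series was fitted alone to its counts with litter and genotype in the model (edgeR 4.0.16, R 4.3.3; TMM, glmQLFit, glmQLFTest). A gene entered where 4 or more libraries reached 10 counts, and p was adjusted by Benjamini-Hochberg over all of them at 0.05. SE is the size of the log2 fold change over the square root of F, and intervals are 95%. Log2 CPM used a prior count of 2. The p-values measure the spread between pups of 1 or a few litters. Poisson intervals cover counting error only. The steps were tested on simulated counts. Alternatives were RLE scaling, DESeq2 1.42.0, other filters, models without litter or with sex, the robust option and leaving out each library. Alternatives for the 7 libraries and the long-transcript term were chosen after seeing the data.

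The 6 genes and all lists were chosen with earlier results of these data known. Named genes are the 6 and *Snrpn*, the label check of the PWS-IC series. Of each list they are the genes called plus the 2 with the lowest unadjusted p in each fit. Genes with like patterns are the 3 highest r among genes of at least 1 CPM. Library sizes (45798407 to 62103143 counts) leave counting error small for all but *Oca2* and the low transcripts. Gene positions (mm10, GENCODE) were found for 55144 of 55409 and 55141 of 55406 genes, and start windows from RefSeq (GRCm38.p6) matched 5 of the 6 genes.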

Additional observations from a re-analysis of the deposited data

Results flagged for a closer look

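*Oca2* in the wild-type library 4_6_IC had 1.35 CPM (69 counts), while the other 4 wild-type libraries of the PWS-IC series had 0.82 to 0.91 CPM. Its gap to the next library was 0.82 of the whole range of the group, past Dixon's 95% limit for 5 samples. It was the 1 value singled out among 24 groups of a gene and a genotype, and chance alone marks about 1 in 20 such groups. Without this library the *Oca2* log2 fold change in PWS-IC was 0.23 over the libraries as labelled and 0.13 in the 7 libraries, neither called by edgeR (adjusted p = 0.67 and 0.86).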

How the results depend on the processing

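No paired analysis was possible because the labels tie pups to a litter only, and litter was already in the model. The 6 genes gave 306 values under the alternatives. None was called (lowest adjusted p 0.21), and 34 changed sign.

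Genes called in PWS-cr numbered 3, against 7 with DESeq2 and 10 with no filter, and 2 to 4 when each library was left out. In PWS-IC as labelled 0 were called, against 1 with DESeq2, 471 with no filter and 53 in the 7 libraries (0 to 1 leaving out each library). In the 7 libraries 53 were called, against 227 with DESeq2, 35 with the long-transcript term and 174 with sex (28 to 55 leaving out each library). The fit with sex separated sex from genotype within litter 1 only. For the difference of effects 0 were called, against 43 without the pair.

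Some log2 fold changes changed sign, so the direction of those values is not settled. With 10 counts asked of every library, PWS-cr gave -0.00075 for *Tubgcp5* and -0.0030 for *Cyfip1*. With sex, *Cyfip1* was -0.00054 in PWS-cr, *Nipa2* -0.011 in PWS-IC as labelled and *Tubgcp5* -0.025 in the 7 libraries. With the long-transcript term, *Oca2* was -0.099 as labelled and 0.0056 in the 7 libraries, and *Herc2* 0.023 there. The 7 libraries gave 7.4e-05 for *Tubgcp5* and -0.090 for *Oca2*, and *Tubgcp5* there was -0.0027 with RLE scaling and -0.0024 with DESeq2. Without the pair the difference of effects was 0.045 for *Herc2* and -0.13 for *Oca2*.

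Leaving out each library in PWS-cr gave -0.050 to 0.058 for *Tubgcp5*, -0.027 to 0.021 for *Cyfip1*, -0.048 to 0.011 for *Nipa1*, -0.35 to 0.028 for *Herc2* and -0.035 to 0.13 for *Oca2*. *Oca2* ranged from -0.068 to 0.23 in PWS-IC as labelled and from -0.33 to 0.13 in the 7 libraries, where *Tubgcp5* ranged from -0.041 to 0.075. The causes of these changes were not tested. *Oca2* rested on 40 to 82 counts per library, the lowest depth of the 6 genes.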
